A study of Mus musculus with 6 samples.

Results

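The 7 genes described here are grouped under the villus tip. Slc28a2, Enpp3, Nt5e, Ada, Pnp and Xdh take up and break down purines, and Krt20 is a keratin of the most mature enterocytes. Pnp and Xdh are in none of the villus zone lists used below. All 7 genes were chosen by name from the 24736 gene symbols of an RNA-seq table of mouse intestinal crypts. The rule held no measured value, but the choice was made with earlier results of these data known. Crypts were isolated in EDTA along the whole gut of male mice aged 12 weeks, 3 WT and 3 Mtg16-/-, with 1 library per mouse. The labels call the knockout CRISPR induced and the study describes Mtg16-/- mice received as a gift. Neither account names a promoter or Cre line that would limit the deletion to a cell type. The comparison asks how loss of the transcriptional co-repressor MTG16 changed expression in the crypt epithelium.

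Purine nucleotides that reach the gut lumen from food, shed cells and microbes are stripped of their phosphates by enzymes on the enterocyte surface. The nucleosides are carried into the cell, where adenosine is deaminated to inosine, inosine is split to hypoxanthine, and hypoxanthine is oxidised to urate. Enterocytes mature as they climb the villus, and several genes of this route are known to be strongest in cells near the tip, where Krt20 is also high. The libraries come from crypt preparations, and the position of a cell along the villus was not measured in them. In bulk RNA, fewer cells of a type and less RNA per cell cannot be told apart.

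All levels are TPM, transcript abundances that are scaled by gene length and to the same total in every library, so that genes can be compared with each other. Log2 differences are differences of mean log2(TPM + 1), Mtg16-/- minus WT, tested with limma's moderated test. The test covered 12268 genes whose mean TPM reached 1, and all 7 members were among them. TPM keeps no read number, so the depth behind the values is unknown. Cbfa2t3, which encodes MTG16, had a TPM of 3.67, 6.69 and 4.52 in WT and of 4.62, 6.43 and 3.23 in the Mtg16-/- libraries, so gene-level TPM did not separate the genotypes, and each direction below rests on the labels. The epithelial marker Epcam had a TPM of 1087 to 1375 in WT and of 1091 to 1193 in Mtg16-/-, and the crypt base marker Olfm4 one of 647 to 1147 in WT and of 1239 to 1611 in Mtg16-/-. The stem cell marker Lgr5 ran from 6.02 to 8.16 in WT and from 9.94 to 20.2 in Mtg16-/-. WT replicate 1 and Mtg16-/- replicate 3 lay at the ends of the first principal component, which held 47.7% of the variance. Results without them are given for the members and for several lists.

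Each of the 7 genes had a lower mean in Mtg16-/- crypts than in WT, and none of the differences passed the test. Ada, Enpp3 and Nt5e had mean levels 2.68, 2.90 and 3.01 times as high in WT as in Mtg16-/-, and Xdh, Krt20 and Slc28a2 had means 2.13, 2.11 and 2.21 times as high. Pnp stood apart, with a WT mean 1.20 times that of Mtg16-/-. At the threshold of 0.1 on limma's adjusted p, 0 of the 7 passed, and 0.0326% of all genes tested passed in either direction (0.0163% with a lower level in Mtg16-/-). An unadjusted p under 0.05 was reached by Enpp3, Ada and Krt20, or 3 of the 7, all lower in Mtg16-/-. Among all genes tested 14.6% reached it, 8.05% with a lower and 6.53% with a higher level in Mtg16-/-. The groups overlapped in each of the 7 genes, whereas they did not overlap in 21% of all genes, with 11.1% of all genes lower in Mtg16-/-. A log2 difference below 0 was found in 7 of 7 members and in 53.6% of all genes. With the replicate number as a block, 6 of the 7 (all but Pnp) had an adjusted p under 0.1, as did 9.79% of all genes (6.65% lower in Mtg16-/-), but the shared numbers were not shown to pair the mice. With array weights Enpp3 alone, 1 of the 7, had one, as did 6.97% of all genes.

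**Figure D1:**
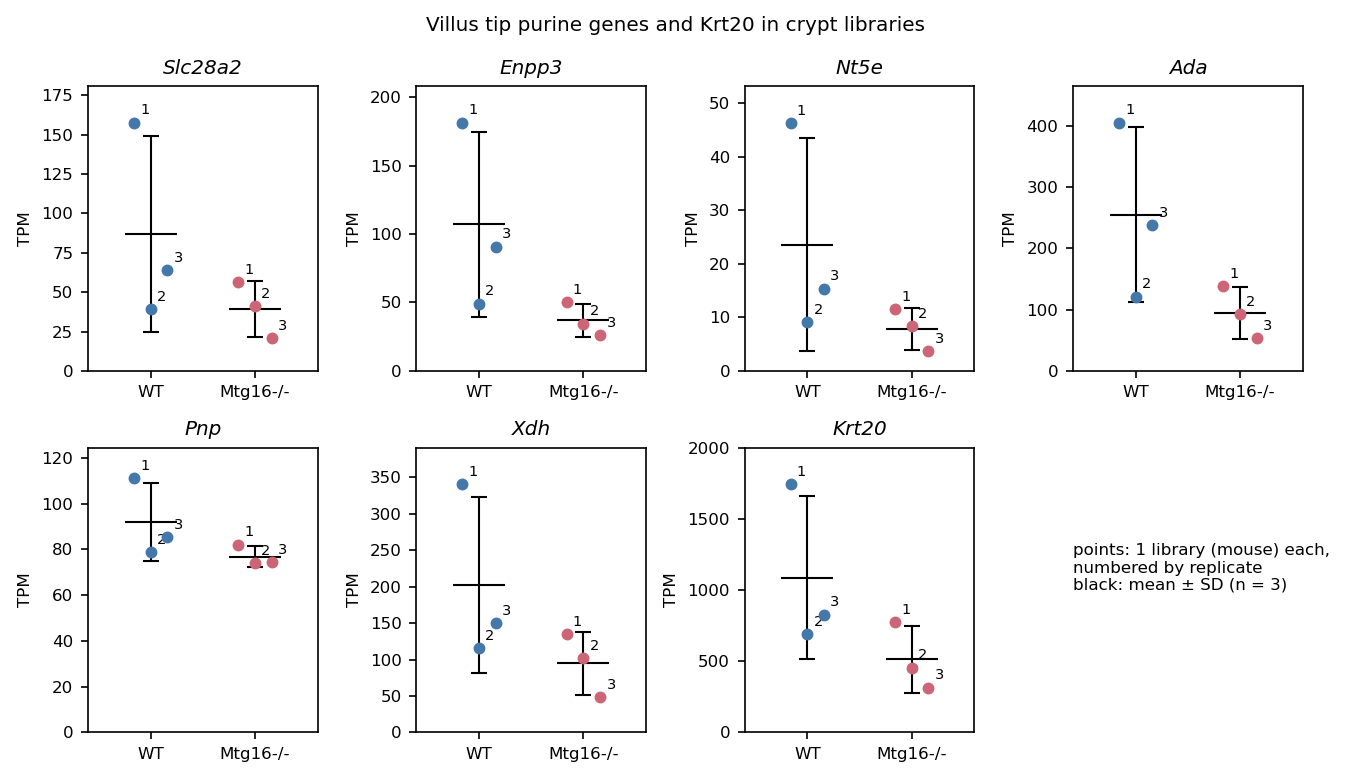
TPM of the 7 genes in each crypt library (vertical axes from 0), with 3 WT and 3 Mtg16-/- mice numbered by replicate and the mean ± SD in black. WT replicate 1 is the highest point in each of the 7 panels, and Mtg16-/- replicate 1 lies above WT replicate 2 in each of them.

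Promoter sequence is shown for Ada and Enpp3, the members with the lowest log2 differences, and for Krt20. The 3 genes ranked the libraries alike, as did Nt5e and Xdh, which are not shown. Each line gives the 250 bases before the annotated start from RefSeq (GRCm38.p6), read 5′ to 3′ on the strand of the gene. They lie at chr2:163750240-163750489 on the minus strand for Ada, at chr10:24836196-24836445 on the minus strand for Enpp3, and at chr11:99438154-99438403 on the minus strand for Krt20. Capitals mark the GATA motif AGATAA on either strand.
Ada: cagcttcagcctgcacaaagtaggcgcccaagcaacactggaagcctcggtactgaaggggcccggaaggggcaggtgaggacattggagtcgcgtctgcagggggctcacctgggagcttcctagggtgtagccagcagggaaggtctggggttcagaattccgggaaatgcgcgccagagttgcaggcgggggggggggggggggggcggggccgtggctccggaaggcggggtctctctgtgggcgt
Enpp3: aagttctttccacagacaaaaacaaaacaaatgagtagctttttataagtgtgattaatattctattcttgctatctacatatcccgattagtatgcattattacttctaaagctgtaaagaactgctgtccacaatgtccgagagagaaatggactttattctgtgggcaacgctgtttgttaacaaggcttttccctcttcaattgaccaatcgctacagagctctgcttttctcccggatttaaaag
Krt20: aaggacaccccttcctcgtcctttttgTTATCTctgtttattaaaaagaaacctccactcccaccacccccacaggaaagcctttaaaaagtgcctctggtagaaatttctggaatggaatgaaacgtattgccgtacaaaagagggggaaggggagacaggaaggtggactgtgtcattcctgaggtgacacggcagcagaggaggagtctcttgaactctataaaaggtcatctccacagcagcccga
The Ada sequence held 67.2% G and C, the Krt20 sequence 48% and the Enpp3 sequence 36.8%. AGATAA was found in 2 of the 6 members that have a promoter in the RefSeq table, Krt20 and Slc28a2, and in 9.99% of all 32851 promoters in it. The E-box forms CAGCTG and CAGATG, of the kind bound by ATOH1 and its relatives, were in 0 of the 6 and in 13% and 14.4% of all promoters. The HNF4 motif CAAAGTCCA and the CDX motif TTTATGG were in 0 of the 6 too, and in 0.384% and 2.43% of all. Both strands were searched, and a match or its lack describes these letters in this window only.

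Enpp3 encodes a surface pyrophosphatase and phosphodiesterase that cleaves extracellular nucleotides such as ATP. Its gene lies on chromosome 10 of GRCm38 from 24773814 to 24836195. Enpp3 had a TPM of 181, 49.2 and 90.7 in WT replicates 1, 2 and 3 and of 50.2, 34.5 and 26.1 in the Mtg16-/- replicates. Only WT replicate 2 fell within the Mtg16-/- range, and it lay just under Mtg16-/- replicate 1. The mean was 107 ± 67.6 TPM for WT against 36.9 ± 12.2 TPM for the knockout (SD, 3 mice each). The log2 difference was -1.36 (SE 0.44, 95% confidence interval -2.38 to -0.35, limma adjusted p = 0.279). By log2 difference it was the 79th most lowered of the 12268 genes tested.

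Nt5e encodes CD73, the surface nucleotidase that converts AMP to adenosine, and lies on chromosome 9 from 88327609 to 88372089. Nt5e had a TPM of 46.3, 9.13 and 15.4 in WT and of 11.5, 8.38 and 3.66 in Mtg16-/-. WT replicate 1 was 5.07 times as high as WT replicate 2, the widest spread within a group among the 7 genes. The means were 23.6 ± 19.9 TPM for WT against 7.84 ± 3.94 TPM for the knockout (SD, 3 mice each). Its log2 difference was -1.28 (SE 0.57, 95% confidence interval -2.59 to 0.03, limma adjusted p = 0.351).

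Slc28a2 encodes CNT2, the sodium-coupled transporter that brings purine nucleosides across the brush border. RefSeq places it on chromosome 2 from 122426357 to 122461152. Slc28a2 had a TPM of 158, 39.3 and 63.9 in WT and of 56.5, 41.0 and 20.8 in Mtg16-/-. It was the one member in which WT replicate 2 lay below both Mtg16-/- replicate 1 and Mtg16-/- replicate 2. Means were 87.0 ± 62.4 TPM for WT against 39.4 ± 17.9 TPM for the knockout (SD, 3 mice each), a log2 difference of -0.99 (SE 0.52, 95% confidence interval -2.19 to 0.20, limma adjusted p = 0.406). Its near copy Slc28a2b, listed as Gm14085, shares 38% of the 50-base words of the Slc28a2 transcripts, so reads could be divided between them in the quantification. The table lists Gm14085 at 0 in 5 libraries and at 0.09 in WT replicate 3.

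Ada encodes adenosine deaminase, which turns adenosine and deoxyadenosine into inosine and deoxyinosine, and lies on chromosome 2 from 163726571 to 163750239. Ada had a TPM of 405, 121 and 237 in WT and of 138, 92.9 and 53.6 in Mtg16-/-. The order of the mice was the same as for Enpp3 and Nt5e, with WT replicate 2 between Mtg16-/- replicates 1 and 2. Means were 254 ± 142 TPM for WT against 94.97 ± 42.4 TPM for the knockout (SD, 3 mice each). The log2 difference of Ada was -1.35 (SE 0.46, 95% confidence interval -2.42 to -0.28, limma adjusted p = 0.286), the 82nd most lowered of the genes tested.

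Pnp encodes purine nucleoside phosphorylase, which splits inosine and guanosine into their bases, and lies on chromosome 14 from 50944303 to 50953412. Pnp had a TPM of 111, 78.9 and 85.4 in WT and of 82.1, 74.0 and 74.5 in Mtg16-/-. The 6 libraries were much closer to each other than for the other members, with WT replicate 1 only 1.41 times as high as WT replicate 2. The log2 difference was -0.24 (SE 0.15, 95% confidence interval -0.59 to 0.11, limma adjusted p = 0.475). Pnp2, a second phosphorylase gene that follows it on the chromosome from 50956141 to 50964751, holds 13.6% of the 50-base words of Pnp, so the division of reads between the 2 genes is uncertain. Pnp2 had a TPM of 160, 107 and 120 in WT and of 120, 114 and 99.4 in Mtg16-/-. The sum of both, which depends less on that division, was 221 ± 44.5 TPM in WT and 188 ± 14.1 TPM in Mtg16-/- (exact permutation test, two-sided, p = 0.3, n = 3 each).

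Xdh encodes xanthine dehydrogenase, the molybdenum enzyme that oxidises hypoxanthine to xanthine and xanthine to urate, and lies on chromosome 17 from 73883895 to 73950397. Xdh had a TPM of 341, 116 and 150 in WT and of 135, 101 and 48.8 in Mtg16-/-. Mtg16-/- replicate 3 alone was far below the rest, and the other 2 Mtg16-/- libraries lay beside WT replicates 2 and 3. Means were 202 ± 121 TPM for WT against 94.9 ± 43.2 TPM for the knockout (SD, 3 mice each), a log2 difference of -1.04 (SE 0.46, 95% confidence interval -2.11 to 0.03, limma adjusted p = 0.351).

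Krt20 encodes an intermediate filament keratin of mature enterocytes, with no part in purine metabolism, and lies on chromosome 11 from 99428385 to 99438153. Krt20 had a TPM of 1747, 689 and 829 in WT and of 776, 454 and 315 in Mtg16-/-. Its mean was 1088 ± 575 TPM for WT against 515 ± 236 TPM for the knockout (SD, 3 mice each). Its log2 difference of -1.05 (SE 0.42, 95% confidence interval -2.01 to -0.10, limma adjusted p = 0.313) was close to those of Xdh and Slc28a2. Among 5 other keratins of simple epithelia, 3 were lower and 2 higher, with log2 differences from -0.24 for Krt23 to 0.19 for Krt18. The abundant Krt8, with a TPM of 2784 to 3310 in WT and of 2779 to 3237 in Mtg16-/-, had a log2 difference of -0.04.

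Ordered by mean TPM over the 6 libraries, Krt20 was first at 801 and was followed by Ada at 175, Xdh at 149, Pnp at 84.4, Enpp3 at 72.0, Slc28a2 at 63.2 and Nt5e at 15.7. Krt20 exceeded Ada, and Slc28a2 exceeded Nt5e, in each of the 6 libraries. Ada and Xdh, which follow each other in the order, differed by less than their spread, since their ranges overlapped in both groups and Ada was the higher in 5 of 6 libraries. Enpp3 and Slc28a2 overlapped in both groups too, with Enpp3 higher in 4 of 6 libraries. Xdh lay above Pnp in 5 of 6 libraries, with ranges that overlapped in Mtg16-/- but not in WT. Pnp lay above Enpp3 in 4 of 6 libraries, and the ranges of these 2 genes overlapped in WT but not in Mtg16-/-. The order over all 6 libraries was not that of either genotype, since Enpp3 (mean 107) stood above Pnp (91.9) in WT and Slc28a2 (39.4) above Enpp3 (36.9) in Mtg16-/-.

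The 7 genes ranked the libraries almost alike. WT replicate 1 was the highest library in 7 of 7 genes, which was so for 31.4% of all genes tested, and Mtg16-/- replicate 3 was the lowest in 6 of 7, against 31.5%. WT replicate 2 lay below Mtg16-/- replicate 1 in 7 of 7, against 53.8% of all genes. In Krt20 the falling order was WT replicate 1, WT replicate 3, Mtg16-/- replicate 1, WT replicate 2, Mtg16-/- replicate 2 and Mtg16-/- replicate 3. Enpp3, Nt5e, Ada and Xdh shared it, and 2.01% of all genes tested had it. The order was read from Krt20 in these data, so the comparison is no test of the members. The highest WT library was between 2.54 and 5.07 times the lowest for the members other than Pnp, more than the factor of 2.11 to 3.01 between the means of the genotypes. Without WT replicate 1, the median log2 difference of the 7 genes was -0.65, where it had been -1.05 with all libraries, and Enpp3 alone, 1 of the 7, had an unadjusted p under 0.05 (limma, smallest adjusted p = 0.392). In that fit 11.5% of all genes had one, 6.13% with a lower level in Mtg16-/-. Without Mtg16-/- replicate 3 alone, the unadjusted limma p was 0.0647 for Enpp3, 0.0841 for Ada and 0.139 for Krt20. It was 0.2 or more for the other members. Without WT replicate 1 and Mtg16-/- replicate 3, a choice made after seeing the data, the median log2 difference of the 7 genes was -0.25. In that fit 0 of the 7 had an unadjusted p under 0.05, where 11.6% of all genes did. The log2 difference was then -0.67 for Enpp3 and -0.58 for Ada, -0.35 for Krt20, -0.25 for Nt5e, -0.17 for Xdh, -0.07 for Pnp and -0.06 for Slc28a2.

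To ask whether the purine genes differed by another amount than the tip keratin, each was divided by Krt20 within its library. The log2 ratio of Xdh to Krt20 was -2.46 ± 0.10 for WT against -2.44 ± 0.26 for the knockout (SD, 3 mice each), a difference of 0.01 (exact permutation test, two-sided, p = 1). The ratio of Slc28a2 to Krt20 differed by 0.06 (exact permutation p = 0.9) and that of Nt5e by -0.23 (exact permutation p = 0.7). The differences were -0.30 for Ada and -0.31 for Enpp3 (exact permutation p = 0.3 each). The sign for Xdh and Slc28a2 turned when WT replicate 2 or Mtg16-/- replicate 2 was left out, and the difference of Nt5e was -0.0035 without WT replicate 1 and -0.44 without WT replicate 2. Pnp differed most, with a ratio to Krt20 of -3.44 ± 0.45 in WT and -2.63 ± 0.58 in Mtg16-/-, a difference of 0.81 (exact permutation p = 0.2, n = 3 each) that ran from 0.53 without Mtg16-/- replicate 3 to 1.11 without Mtg16-/- replicate 1. The 6 ratios had adjusted p between 0.6 and 1, and the smallest unadjusted p that 3 mice against 3 allow is 0.1.

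**Figure D2:**
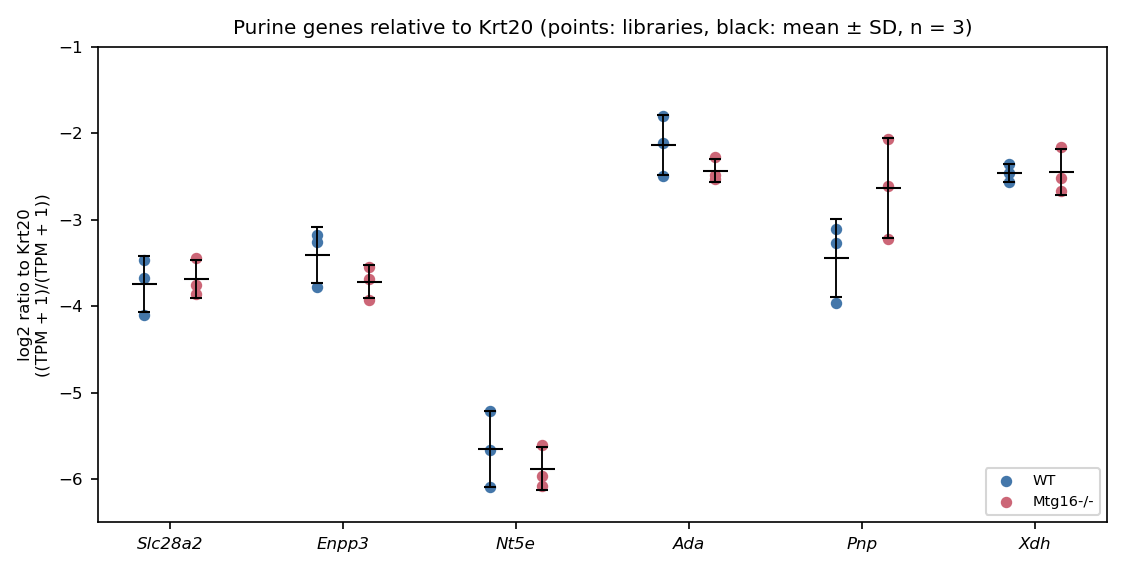
Log2 ratio of each purine gene to Krt20 within a library (TPM + 1 in both), with 3 WT and 3 Mtg16-/- libraries as points and the mean ± SD in black. The means of the genotypes differ by 0.01 for Xdh and 0.06 for Slc28a2, and that of Pnp lies 0.81 higher in Mtg16-/-.

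Genes of mature enterocytes and of lymphocytes moved with these members across the libraries. In these and the following gene lists, lower and higher refer to the sign of the log2 difference. Of 20 enterocyte genes that hold no member, 20 were lower in Mtg16-/-, with a median log2 difference of -0.81 where the median of all genes tested was -0.03. They ranged from -1.40 for the triglyceride synthesis enzyme Dgat2 to -0.15 for the protease Mep1a, and 0 were called. Their summed TPM ran from 8393 to 18704 in WT and from 4629 to 9230 in Mtg16-/-. Of 15 lymphocyte genes, 15 were lower as well, with a median of -0.77, from -1.38 for Cd7 to -0.01 for Cd79a, 0 called and a summed TPM of 200 to 618 in WT and of 99.9 to 295 in Mtg16-/-. Of these markers Cd3e, a subunit of the T cell receptor complex, had a TPM of 31.0, 9.95 and 19.3 in WT and of 19.1, 10.6 and 6.20 in Mtg16-/-, and none of the 15 was at 0 in all libraries. ADA and CD73 are also known from lymphocytes, and the part of these cells in the levels of Ada and Nt5e was not tested. Without WT replicate 1 the median was -0.45 for the enterocyte genes and -0.33 for the lymphocyte genes. Without Mtg16-/- replicate 3 the medians were -0.59 and -0.33. With both libraries left out the medians were -0.17 and 0.02. Of 7 tested macrophage and dendritic cell genes, 5 were lower and 2 higher, from -0.34 for Itgax to 0.39 for C1qb, and all 9 listed summed to 28.8 to 37.9 TPM in WT and 28.0 to 33.8 in Mtg16-/-. Of 4 tested stromal genes 3 were higher, from -0.66 for Pdgfrb to 0.31 for Col3a1, and all 12 listed summed to 14.4 to 21.2 TPM in WT and 15.9 to 22.6 in Mtg16-/-. The 2 endothelial genes tested were Pecam1 at -0.30 and Esam at 0.10, and all 8 listed summed to at most 6.06 TPM in any library.

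The enterocyte score of each library, the mean deviation of the 20 enterocyte genes, was then added to the model. The score was 1.15, -0.04 and 0.08 in WT replicates 1, 2 and 3 and 0.13, -0.53 and -0.78 in the Mtg16-/- replicates. These 20 genes were themselves lower in Mtg16-/-, so the score takes up part of any genotype difference. This fit cannot separate the score from the genotype. In it the log2 difference was -0.42 for Enpp3, -0.38 for Ada and -0.12 for Krt20. It was -0.03 for Xdh and -0.02 for Nt5e. Slc28a2 and Pnp then turned to 0.15 and 0.01. The limma adjusted p of the 7 genes was 0.542 or more in this fit, in which 0.0897% of all genes were called.

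**Figure D3:**
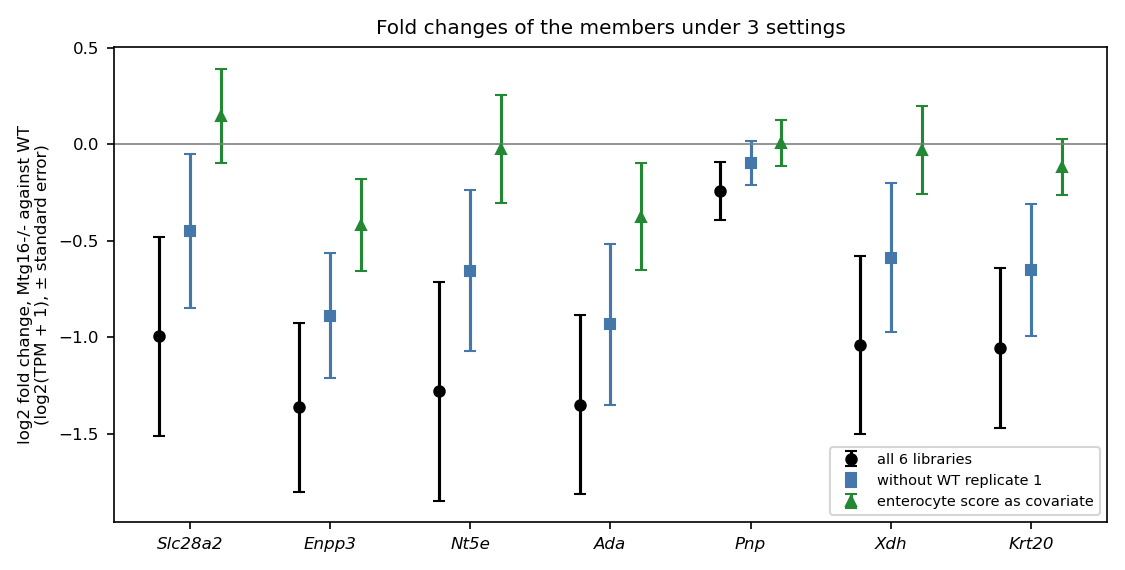
Log2 difference (Mtg16-/- minus WT, log2(TPM + 1)) of each gene with its standard error, for all 6 libraries, without WT replicate 1, and with the enterocyte score as a covariate. In each of the 7 genes the value lies nearer to 0 without WT replicate 1. With the covariate it ranges from -0.42 for Enpp3 to 0.15 for Slc28a2. The covariate is made of genes that were lower in Mtg16-/-, so it takes up part of the genotype difference.

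Several other genes act at the same steps as the members. A broad list of nucleotide breakdown outside the cell had 11 tested genes. Of these, 10 were lower in Mtg16-/- and 1 higher, with 0 called and a median log2 difference of -0.61. The list also holds Dpp4, a peptidase, whose value is this median, and Entpd5, a nucleotidase of the endoplasmic reticulum. The median was -0.30 without WT replicate 1 and -0.45 without Mtg16-/- replicate 3. With both of these libraries left out it was -0.26. Leaving out Enpp3 and Nt5e, 8 of 9 were lower with a median of -0.47, the value of Entpd5. The groups did not overlap in 4 of the 11 with a lower level in Mtg16-/-, where 11.1% of all genes tested were so. Alpi, the brush border alkaline phosphatase, had a TPM of 728, 227 and 354 in WT and of 218, 143 and 154 in Mtg16-/-. Its groups did not overlap, with a log2 difference of -1.20 (SE 0.39, limma adjusted p = 0.279). Entpd8, an ectoenzyme that hydrolyses ATP and ADP, also had groups that did not overlap, with a TPM of 54.9 to 106 in WT and of 28.7 to 44.9 in Mtg16-/-. Acpp, an acid phosphatase that can also act on AMP, was the one that was higher, with a log2 difference of 0.41 (limma adjusted p = 0.28).

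Among 6 tested nucleoside transporters, 4 were lower and 2 higher, with a median log2 difference of -0.08 and 0 called. Leaving out 1 library moved the median between -0.24 (without Mtg16-/- replicate 2) and -0.03 (without Mtg16-/- replicate 1), and it was -0.19 without WT replicate 1. Slc28a1, the concentrative transporter that prefers pyrimidine nucleosides, had a TPM of 29.0, 7.16 and 14.9 in WT and of 12.5, 6.34 and 8.25 in Mtg16-/-, and its log2 difference was -0.69 (limma adjusted p = 0.482). The equilibrative transporter Slc29a1, which lets nucleosides pass in both directions, had a TPM of 17.8, 36.9 and 27.6 in WT and of 26.0, 27.6 and 29.6 in Mtg16-/-, and WT replicate 1 was the lowest of its 6 libraries. The highest was Slc29a3, a transporter of lysosomes and mitochondria, with a log2 difference of 0.28.

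Inside the cell, genes of breakdown and salvage had no common direction. Of 20 tested genes of both kinds, 9 were lower and 11 higher in Mtg16-/-, with a median log2 difference of 0.07 and 0 called. The median was -0.04 without Mtg16-/- replicate 3. Gda, guanine deaminase, which feeds guanine into the xanthine step of Xdh, resembled the members with a TPM of 393, 104 and 145 in WT and of 112, 75.7 and 58.0 in Mtg16-/-, a log2 difference of -1.19 (SE 0.46, limma adjusted p = 0.312). Hprt, which returns hypoxanthine and guanine to nucleotides, had a TPM of 69.7 to 74.5 in WT and of 78.1 to 123 in Mtg16-/-, a log2 difference of 0.40 (SE 0.17, limma adjusted p = 0.331). Adk, which phosphorylates adenosine and so competes with Ada for it, was singled out after its values were seen, with a TPM of 67.3, 60.1 and 62.4 in WT and of 77.9, 78.7 and 85.0 in Mtg16-/-. The groups of Hprt and Adk did not overlap, and 6 of the 20 genes of this list were higher in Mtg16-/- with no overlap, where 9.94% of all genes tested were.

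Purine synthesis de novo, which builds the ring from small precursors and is known to be high in dividing cells, had 9 of 12 tested genes higher in Mtg16-/-, a median log2 difference of 0.13 and 0 called. That median was -0.0011 without WT replicate 1, 0.26 without Mtg16-/- replicate 1 and -0.07 without WT replicate 1 and Mtg16-/- replicate 3. Paics, which carries out a pair of middle steps, had a TPM of 35.2, 56.3 and 54.2 in WT and of 62.4, 71.2 and 86.2 in Mtg16-/-, a log2 difference of 0.60 (SE 0.21, limma adjusted p = 0.286). Pfas lay lowest in this list at -0.19. In 3 of the 12 genes, Prps2, Paics and Impdh2, the groups did not overlap, with Mtg16-/- the higher, as in 9.94% of all genes tested. WT replicate 1, the highest library for the members, was the lowest library for the summed TPM of this list, at 559, and Mtg16-/- replicate 3 was the highest at 910.

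The receptors that read extracellular adenosine and ATP had no common direction either. Of 9 tested, 5 were lower and 4 higher in Mtg16-/-, with 0 called and a median of -0.11 that ran from -0.21 without WT replicate 3 to 0.01 without Mtg16-/- replicate 3. Adora2b, the low-affinity adenosine receptor of the epithelium, had a TPM of 9.51, 2.11 and 3.49 in WT and of 2.33, 1.29 and 1.19 in Mtg16-/-, a log2 difference of -1.05 (limma adjusted p = 0.323). P2ry6, a receptor for UDP, had a TPM of 6.01 to 9.25 in WT and of 10.8 to 11.6 in Mtg16-/-, a log2 difference of 0.54 (limma adjusted p = 0.279) with no overlap. Of 7 tested genes of molybdenum enzymes and their cofactor, 5 were lower, with a median of -0.04 that ran from -0.30 without WT replicate 3 and -0.29 without Mtg16-/- replicate 1 to 0.01 without WT replicate 2. Mocos, the sulfurase that completes the cofactor of Xdh, lay lowest at -0.75 (limma adjusted p = 0.328), with a TPM of 26.1, 13.7 and 13.7 in WT and of 14.3, 9.35 and 6.82 in Mtg16-/-. Of 4 tested urate transporters 2 were lower and 2 higher, from -0.17 for Slc17a4 to 0.23 for Abcc4. Of 12 tested genes of pyrimidine salvage and breakdown, 8 were lower and 4 higher, with a median of -0.11 that was -0.25 without WT replicate 2 and -0.18 without WT replicate 3. Upp1, which splits uridine as Pnp splits inosine, lay lowest at -0.72, and Tk1, a thymidine kinase of dividing cells, highest at 0.57.

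**Figure D4:**
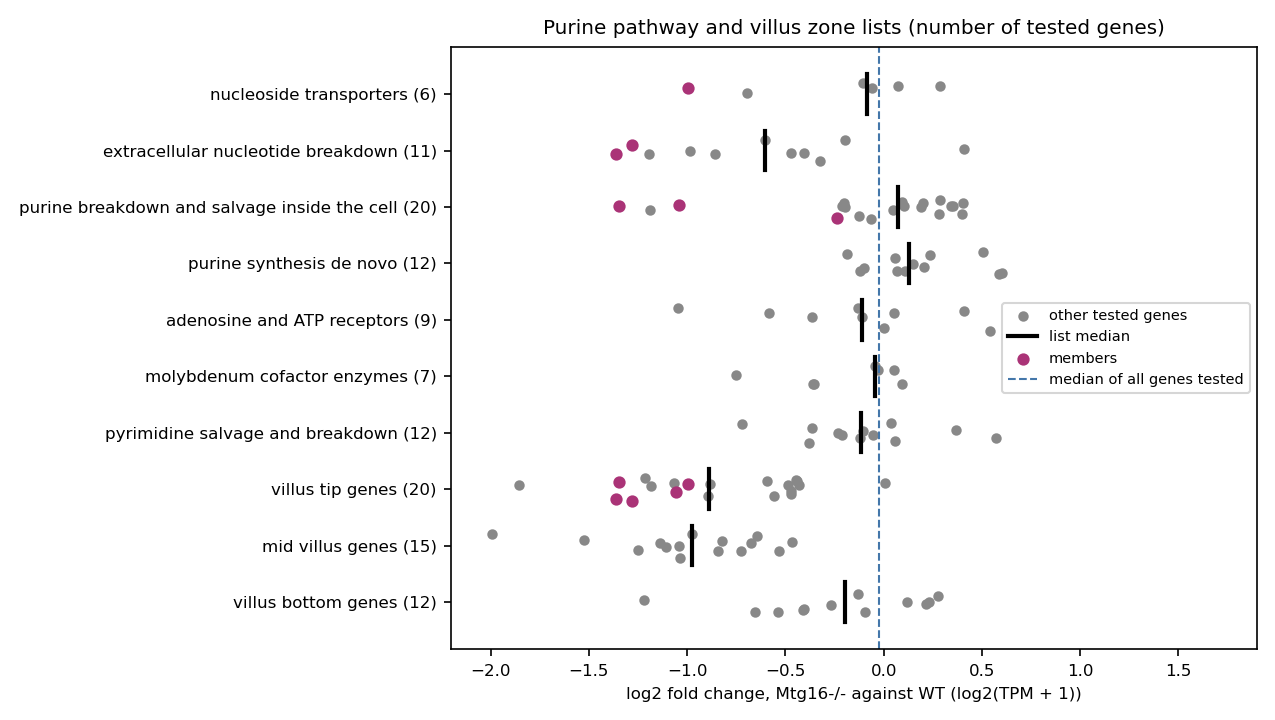
Log2 difference (horizontal axis, Mtg16-/- minus WT on log2(TPM + 1)) of each tested gene of 10 lists, with members in purple, other genes in grey, the list median as a black bar and the median of all genes tested, -0.03, as a dashed line. The genes of nucleotide breakdown outside the cell and of the villus tip and middle lie mostly left of the line, and those of purine synthesis de novo mostly right of it.

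The members were set beside gene lists for zones of the villus, compiled from general knowledge. Whether each listed gene marks its zone was not tested in these crypt libraries. Of 15 villus tip genes other than the members, 14 were lower in Mtg16-/- with a median log2 difference of -0.56 and 0 called. Apoa4, an apolipoprotein of the upper villus, lay lowest at -1.85 (SE 0.47, limma adjusted p = 0.247), and the growth factor receptor Egfr was at 0.00. Of 15 genes of the middle villus, 15 were lower with a median of -0.98 and 0 called, from -1.99 for Fabp1, a fatty acid binding protein, to -0.47 for Slc7a9, a subunit of an amino acid transporter. The 12 genes of the villus bottom had a median of -0.20 (-0.36 without Mtg16-/- replicate 1, -0.06 without Mtg16-/- replicate 3), with 8 lower and 4 higher, from -1.22 for the cytokine gene Il18 to 0.28 for Cps1. No difference between zones was tested. Without WT replicate 1 the medians were -0.46 for all 20 tip genes and -0.52 for the middle. The 20 tip genes include Slc28a2, Enpp3, Nt5e, Ada and Krt20. Without Mtg16-/- replicate 3 the medians were -0.56 and -0.59. With both left out they were -0.18 for the tip, -0.22 for the middle and -0.16 for the bottom.

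**Figure D5:**
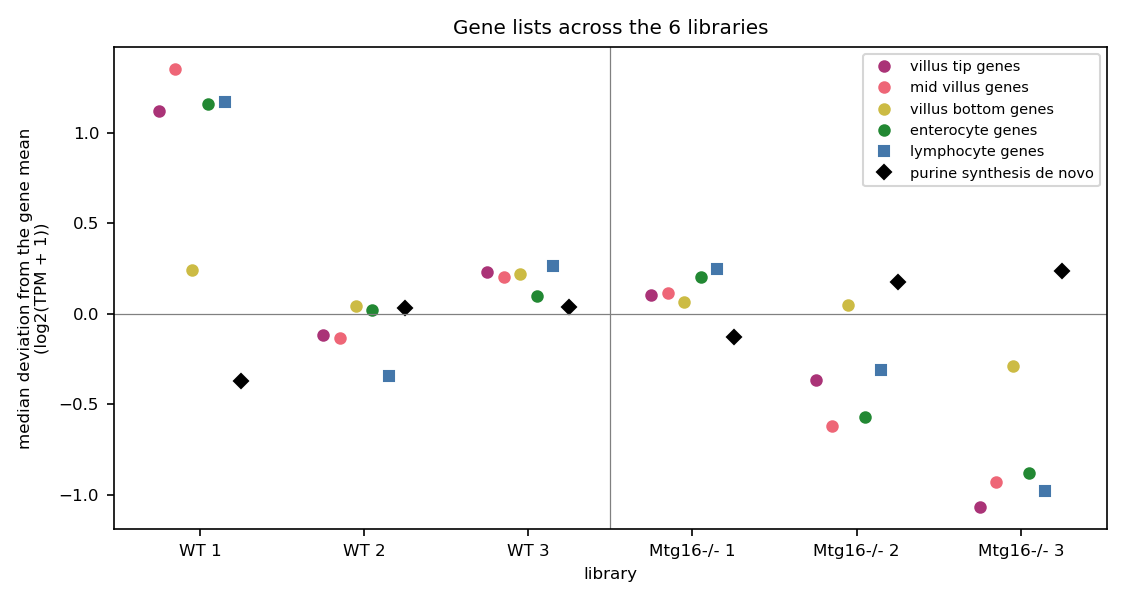
Median deviation of a list's tested genes from their means over all 6 libraries (vertical axis, log2(TPM + 1)) in each WT and Mtg16-/- library. WT replicate 1 is the highest library and Mtg16-/- replicate 3 the lowest for the tip, middle villus, enterocyte and lymphocyte lists. The same holds for the villus bottom list (0.24 and -0.29), where WT replicate 3 is close behind at 0.22. These 2 libraries, WT replicate 1 and Mtg16-/- replicate 3, change places for purine synthesis de novo.

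The genes most like each member were found by the root mean square difference of log2(TPM + 1) profiles over the 6 libraries, each centred on its own mean. They are named although the groups of the members overlap, a choice made after seeing the data. Nearest to Krt20 was Slc27a4, a fatty acid transport protein of enterocytes, at 0.04, followed by Sema6a and by Anpep, a brush border aminopeptidase. The interferon-induced gene Ifit1 was nearest to Xdh, at 0.09, followed by Apob, the protein of chylomicrons. Nearest to Slc28a2 was Cd8a, a T cell co-receptor, at 0.14, and Ifit1 and Apob came next. The genes nearest to Ada were Ceacam18 at 0.14, the interferon-induced Oas3 and the lymphocyte gene Cd7. Nt5e was nearest to Clca4a, at 0.20, and Enpp3 to Slc16a3, at 0.15, with Dgat2 and Gda next. Pnp lay nearest to Tmem64, at 0.03. Between members, Xdh and Slc28a2 were closest at 0.13, Ada and Enpp3 followed at 0.15, and Pnp was at least 0.59 from each of the others. The profiles were not scaled, so this measure depends on how widely a gene varied as well as on its pattern. The values of Pnp, which varied little, cannot be compared with those of the other members.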

How the data were processed

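Gene-level TPM values by RSEM, deposited by the authors for 24736 gene symbols and rounded to 2 decimals, were used for all 6 libraries. RNA had been depleted of ribosomal RNA. The submitters' processing notes name cutadapt 1.9.1, STAR 2.5.2a, RSEM 1.3.0, DESeq2 1.12.3 and the build mm10. TPM keeps no read number, so depth is unknown, no count test was run, and no interval or floor that needs depth is given.

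Values were transformed as log2(TPM + 1). The 12268 genes whose mean TPM reached 1 were fitted with limma 3.58.1 (lmFit and eBayes with an intensity trend, R 4.3.3) without covariates, with Benjamini-Hochberg adjustment over all of them. The threshold was an adjusted p under 0.1, as in the study, but the test on TPM is not the study's own. The study reported more differentially expressed genes between WT and Mtg16-/- than the 4 called here. It also reported a significant reduction of enterocyte markers. The calls here therefore do not stand for those of the study. Differences on this scale understate those of low genes. Ratios were tested by exact permutation of the libraries (two-sided). The fit was tested on simulated data.

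The 7 members and 17 gene lists, compiled from general knowledge, were chosen with earlier results of these data known. Named genes are the members, their near copies, Cbfa2t3, the genes of each list with the largest log2 difference in either direction, and others named as chosen after their values were seen, including Entpd8, Slc29a1, Adk, Prps2, Impdh2, Krt8, Cd3e and the genes most like each member. Of the listed genes 1 is not in the table. Positions and promoters are RefSeq GRCm38.p6, and shared words were counted in GENCODE vM21 transcripts. Alternatives were a pseudocount of 0.1, 2 other filters (none, or a mean TPM of 5), quantile normalization, median-ratio rescaling, array weights, eBayes made robust or without the trend, the replicate number as a block, the enterocyte score, a threshold of 0.05 and each library left out. The alternative that leaves out 2 libraries was added after seeing the data.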

Additional observations from a re-analysis of the deposited data

How the results depend on the processing

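Of 126 member values under 18 alternatives, 124 lay below 0 and 117 kept both direction and side of the threshold. The other filters, eBayes made robust or without the trend, the replicate block and the stricter threshold left the log2 differences unchanged by construction. Member values under these settings could not change sign, and the 124 includes them. With the enterocyte score as a covariate, Slc28a2 turned to 0.15 and Pnp to 0.0078. Leaving out 1 library, the log2 differences ran from -1.80 to -0.93 for Ada, -1.82 to -0.89 for Enpp3, -1.77 to -0.66 for Nt5e, -1.44 to -0.45 for Slc28a2, -1.36 to -0.59 for Xdh, -1.40 to -0.65 for Krt20 and -0.34 to -0.10 for Pnp, each nearest to 0 without WT replicate 1, with limma adjusted p from 0.204 to 0.764. With array weights 1 member passed, Enpp3 at -1.15 (limma adjusted p = 0.0862), where 6.97% of all genes did.

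Same-numbered libraries correlated at 0.429, 0.0753 and 0.237 in their deviations. Each Mtg16-/- library correlated best with the WT library of its own number. For Mtg16-/- replicate 2 the margin was narrow, with 0.0547 for WT replicate 3. In the other direction, WT replicate 2 correlated best with Mtg16-/- replicate 3 (0.198). These correlations do not settle whether the mice were paired. With the replicate block, 6 members passed with unchanged values, Slc28a2 at -0.99, Nt5e at -1.28, Enpp3 at -1.36, Ada at -1.35, Xdh at -1.04 and Krt20 at -1.05 (limma adjusted p from 0.0170 to 0.0924), and Pnp did not (0.271).

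All genes called numbered 4 as reported, 43 without a filter, 15 at a mean TPM of 5 or more, 1 with median-ratio rescaling, 0 with quantile normalization, 0 without the trend, 20 with robust moderation, 855 with array weights, 1201 with the block, 11 with the enterocyte score, 0 at a threshold of 0.05, 19 without WT replicate 1 and Mtg16-/- replicate 3, and 0 to 20 leaving out 1 library. The cause was not tested. Relative to Krt20, leaving out 1 library moved Slc28a2 from -0.12 to 0.20, Xdh from -0.13 to 0.12, Nt5e from -0.44 to -0.0035, Ada from -0.48 to -0.13, Enpp3 from -0.50 to -0.19 and Pnp from 0.53 to 1.11. Depth is unknown, and 3 mice a group limit the precision.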
